A study of Mus musculus with 2 samples.

Results

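The class 4, 5 and 7 semaphorins of the mouse genome that were followed here are 9 genes: Sema4a, Sema4b, Sema4c, Sema4d, Sema4f, Sema4g, Sema5a, Sema5b and Sema7a. They were chosen by symbol, with earlier results of these data known. Each matched 1 Ensembl identifier among the 32285 in each deposited matrix. Nuclei of the amygdala, the brain region of emotional learning and fear, were sequenced one by one in droplets (single-nucleus RNA sequencing, 5′ tags). The KO library came from mice labelled Sema6d-/- and the WT library from mice labelled WT. Both carry the strain label C57BL6/J and an age of 6 to 8 weeks, and the question behind the series is how gene expression in single amygdala cells looks in the 2 genotypes. The number of animals behind each library, their sex, the part of Sema6d that is deleted and any driver or cell type limit of the deletion are details that the sources used here do not give. With 1 library per genotype, every KO and WT difference below is a difference between 2 libraries. It has no replicate check and no p-value.

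Semaphorins are secreted or membrane-bound proteins that steer growing axons and shape synapses by binding plexins, their main receptors. Class 4 members are transmembrane proteins that mostly signal through B-type plexins. Class 5 members are transmembrane proteins with thrombospondin repeats outside the cell, and plexin-A1 and plexin-A3 are known receptors for them in the mouse retina. Sema7a is held at the membrane by a lipid anchor and binds plexin-C1 and beta1 integrin. Sema6d, the gene deleted in the KO mice, belongs to another transmembrane class that binds A-type plexins.

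After filtering, the KO library held 7911 nuclei with 56736373 UMIs (unique molecules) and a median of 6418 UMIs per nucleus. The WT library held 10369 nuclei with 79305700 UMIs and a median of 7196. The libraries shared 128 barcodes. Median mitochondrial UMIs were 0.424% in the KO library and 0.749% in the WT library. Sema6d UMIs were not fewer in the KO library, at 686 CPM (UMIs per 1000000 UMIs) against 632 CPM in the WT library. Because the deleted part of the gene is not given, UMIs outside it check nothing, and the genotypes are those of the labels. Nuclei were assigned to classes by UMIs of marker genes that include none of the 9 semaphorins. Of the classes, 19 subtypes of neurons, glia and vessel cells held at least 50 nuclei in each library. Levels are UMIs of the gene per 1000000 UMIs of the class (CPM), with exact 95% Poisson intervals in brackets, and ratios carry exact 95% conditional intervals. Both cover counting error only. Because a 5′ tag library and nuclear RNA weigh genes unequally, levels were compared between classes for 1 gene at a time and not between genes.

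The promoters of 3 of the genes are printed because their patterns lead the results: among the broad classes Sema4a and Sema4b shared their highest level in astrocytes, and among the gated classes with 50 nuclei in each library Sema5a was highest in oligodendrocyte precursors. Each stretch is the first 220 of the 250 bases before the RefSeq start of the gene, read 5′ to 3′ on the strand of the gene in GRCm38.p6, and ends before the GENCODE start as well. Sema4a lies on the minus strand at chr3:88461213-88461432, Sema4b on the plus strand at chr7:80186620-80186839 and Sema5a on the plus strand at chr15:32244563-32244782. Capitals mark GGGCGG, the GC box. The other motifs searched were the CCAAT box, the TATA box as TATAAA and the E-box form CAGCTG, all on both strands.
Sema4a: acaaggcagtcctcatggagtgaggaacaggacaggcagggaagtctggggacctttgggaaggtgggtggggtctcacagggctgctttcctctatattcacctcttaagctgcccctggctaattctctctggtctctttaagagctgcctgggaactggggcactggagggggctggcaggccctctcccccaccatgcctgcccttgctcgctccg
Sema4b: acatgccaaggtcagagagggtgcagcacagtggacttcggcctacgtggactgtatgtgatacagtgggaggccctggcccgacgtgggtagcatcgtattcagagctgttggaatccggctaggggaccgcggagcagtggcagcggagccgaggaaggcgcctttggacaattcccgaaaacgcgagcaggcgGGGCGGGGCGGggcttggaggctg
Sema5a: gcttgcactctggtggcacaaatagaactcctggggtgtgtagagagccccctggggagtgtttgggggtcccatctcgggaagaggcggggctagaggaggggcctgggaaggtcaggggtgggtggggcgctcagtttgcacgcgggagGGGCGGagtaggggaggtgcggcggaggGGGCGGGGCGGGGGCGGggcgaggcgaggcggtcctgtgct
GGGCGG was found 2 times in Sema4b and 4 times in Sema5a, overlapping matches included. The 3 stretches held none of the other motifs, and Sema4a held no GGGCGG. The bases between each stretch and the RefSeq start were not searched, so a TATA box there would be missed. Over all 27025 promoters in the table, 28.5% of such stretches held GGGCGG, 31.6% CCAAT, 10.3% TATAAA and 11.1% CAGCTG. Sema4a held 2 CpG dinucleotides, Sema4b 17 and Sema5a 14, against a median of 5 over all promoters (quartiles 2 and 13). Sema4a and Sema4b, which shared astrocytes as their top class, were close in GC content, at 60% and 63.6%, and differed in their CpG and GGGCGG counts.

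**Figure D1:**
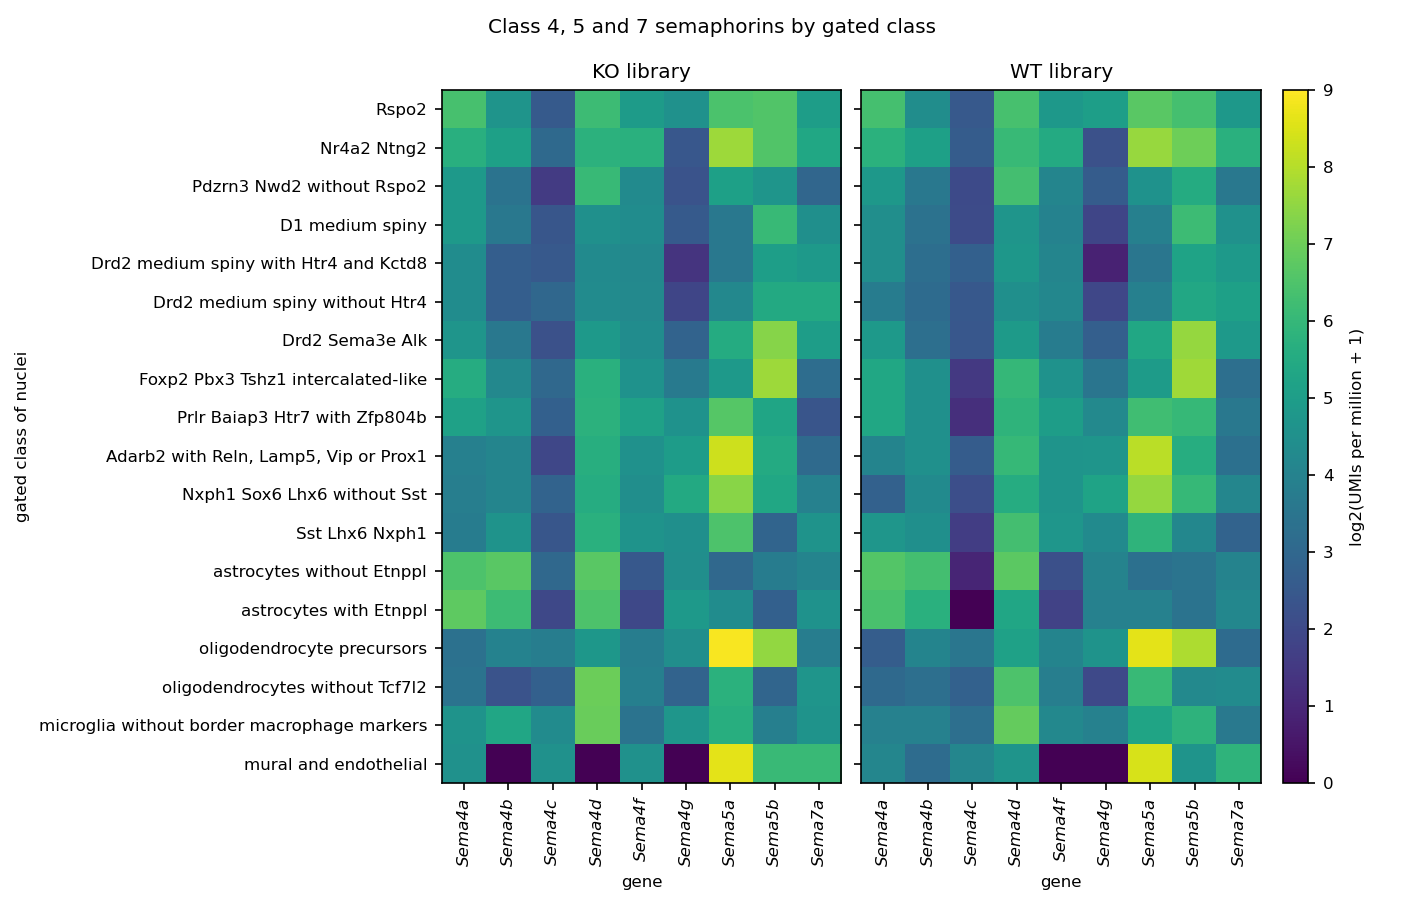
Level of each of the 9 genes (columns) in 18 gated classes (rows) as log2(CPM + 1), in the KO library (left) and the WT library (right). Read down a column: Sema5a is bright in oligodendrocyte precursors and mural and endothelial nuclei, Sema4b in astrocytes, and most columns repeat between the libraries.

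The distribution over classes differed from gene to gene and recurred in both libraries for most of them. Over the 19 classes, which differ in depth and share a library, Spearman's rank correlation between KO and WT levels was 0.98 for Sema5a, 0.91 for Sema4a, 0.87 for Sema4b, Sema4d and Sema5b, 0.86 for Sema4g, 0.83 for Sema7a and 0.74 for Sema4f. For Sema4c, with 316 UMIs in all KO nuclei and 368 in all WT nuclei, it was 0.35. Sema4c, a ligand of plexin-B2, stood between 1.97 and 22.6 CPM in the KO classes and between 0 and 16.3 CPM in the WT classes. No class order could be read for it at this depth. It also overlaps a transcript on the other strand, D430040D24Rik, which had 77 UMIs.

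Sema5a, on chromosome 15 from 32244810 to 32696341 (mm10), is a guidance cue that attracts or repels axons depending on its context. Oligodendrocyte precursors, the dividing glia that give rise to myelinating cells, held 480 CPM in the KO library and 400 CPM in the WT library. Mural and endothelial nuclei held 396 CPM in KO and 351 CPM in WT, on 35 UMIs in KO and 43 in WT. The intervals of this pooled class overlap those of the precursors. Mural nuclei gave 30 of its UMIs in KO and 40 in WT, and endothelial nuclei 5 in KO and 3 in WT. Mural nuclei, 35 in KO and 48 in WT, were too few to be ranked alone. They held 0.560% of Sema5a UMIs on 0.0742% of all UMIs in KO, and 0.617% on 0.105% in WT. Precursors held 4.78% on 0.941% in KO and 2.33% on 0.476% in WT. Relative to all their UMIs, mural nuclei thus stood above precursors in both libraries, on few UMIs. Among the neuron classes described here the inhibitory Adarb2 class, marked by Reln, Lamp5, Vip or Prox1, stood first with 316 CPM in KO and 269 CPM in WT. Medium spiny neurons with Drd1 held 11.0 CPM in KO and 14.0 CPM in WT. The Adarb2 class was therefore 28.7-fold above them in KO (22.4 to 37.1) and 19.2-fold in WT (16.1 to 23.0). When nuclei were grouped by clustering instead, cluster 29, an Adarb2 cluster of 46 KO and 47 WT nuclei, held 888 CPM in KO and 881 CPM in WT. That was above the 672 CPM in KO and 687 CPM in WT of cluster 13, the precursor cluster. The place of precursors at the top thus depended on the grouping. Cluster 29 held 10.4% of the Adarb2 class in KO, however. Most of that class lay in cluster 8, 65.2% in KO and 61.6% in WT. Sema5a in cluster 8 was at 137 CPM in KO and 119 CPM in WT, below the precursor cluster.

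The other neurons described here fell between these ends. The Nxph1 Sox6 Lhx6 interneurons without Sst held 167 CPM of Sema5a in KO and 190 CPM in WT. Excitatory neurons with Nr4a2 and Ntng2, a pair that marks claustrum and endopiriform cells, held 206 CPM in KO and 196 CPM in WT. Rspo2 neurons of the basolateral type held 86.1 CPM in KO and 103 CPM in WT. Drd2 medium spiny neurons with Htr4 and Kctd8 held 11.3 CPM in KO and 10.6 CPM in WT, and those without Htr4 17.2 and 14.3 CPM. The low level was thus common to the Drd1 class and these Drd2 classes. Astrocytes were as low, with 12.1 CPM in KO and 10.1 CPM in WT. Drd2 neurons with Sema3e and Alk, gated by the same medium spiny markers, were higher, at 45.9 CPM in KO and 39.8 CPM in WT.

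After each nucleus was thinned to 1000 UMIs, a Sema5a UMI was seen in 41.0% of precursors in KO (33.2 to 49.2, exact binomial) and in 28.7% in WT (20.1 to 38.6). The same share was 1.11% in astrocytes of the KO library and 0.860% in those of the WT library. To take these as the level of free RNA is an assumption that was not tested. Astrocytes without Etnppl were the lowest class for Sema5a, at 7.29 CPM in KO and 9.01 CPM in WT. Microglia without border macrophage markers held 48.8 CPM in KO and 37.7 CPM in WT. Before thinning, the shares in precursors were 67.3% in both libraries, at median depths of 3333 UMIs in KO and 3495 UMIs in WT. In astrocytes the unthinned shares were 3.29% in KO and 2.57% in WT, at median depths of 2780 UMIs in KO and 2719 UMIs in WT. Thinning left out 183 KO nuclei and 103 WT nuclei of all classes.

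Oligodendrocytes, the myelinating glia, split by Tcf7l2, a transcription factor that marks newly formed oligodendrocytes. Nuclei without Tcf7l2 held 52.8 CPM of Sema5a in KO and 65.9 CPM in WT. Precursors were 9.09-fold above them in KO (7.29 to 11.4) and 6.07-fold in WT (4.64 to 7.98). Nuclei with Tcf7l2, a class singled out after its values were seen, held 749 CPM in the 33 KO nuclei and 386 CPM in the 53 WT nuclei. They made up 2.77% of KO oligodendrocytes (1.91 to 3.86) and 8.36% of WT oligodendrocytes (6.32 to 10.8), and held 60.6% of oligodendrocyte Sema5a UMIs in KO and 74.6% in WT. Their summed microglia markers were at 343 CPM in KO and 607 CPM in WT, against 170 CPM in KO and 135 CPM in WT nuclei without Tcf7l2. Summed precursor markers were at 98 CPM in KO and 156 CPM in WT nuclei with Tcf7l2, against 20.8 CPM in KO and 29.6 CPM in WT nuclei without it. Median depth was 5302 UMIs in KO and 8037 UMIs in WT with Tcf7l2, against 1856 UMIs in KO and 1972 UMIs in WT without it. The part of other cells and of depth in these values was not tested.

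Sema5b, on chromosome 16 from 35541145 to 35664732, is the other class 5 member followed here and had another distribution. Its highest KO level, 204 CPM, was in neurons with Foxp2, Pbx3 and Tshz1, which resemble the intercalated cells between the amygdala nuclei. They held 209 CPM in WT. Drd2 neurons with Sema3e and Alk held 163 CPM in KO and 191 CPM in WT. Drd2 medium spiny neurons without Htr4 held 43.6 CPM in KO and 41.4 CPM in WT, so the Sema3e class was 3.73-fold above them in KO (2.80 to 4.98) and 4.60-fold in WT (3.81 to 5.58). Intercalated-like neurons stood 3.11-fold above the Drd1 medium spiny neurons in KO (2.70 to 3.58) and 2.96-fold in WT (2.67 to 3.27).

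Oligodendrocyte precursors shared both class 5 genes, with 186 CPM of Sema5b in KO and 238 CPM in WT, at intervals that overlap those of the intercalated-like neurons. Oligodendrocytes without Tcf7l2 held 6.65 CPM in KO and 17.8 CPM in WT, so precursors were 27.9-fold above them in KO (16.1 to 51.7) and 13.4-fold in WT (8.47 to 22.0). The share of precursors with a Sema5b UMI after thinning was 17.3% in KO and 18.8% in WT, against 1.68% of microglia in KO and 0.833% in WT. Sema5b UMIs of microglia, 8 in KO and 20 in WT, came from 6 nuclei in each library. The Adarb2 class, the neuron class with the highest Sema5a in KO, held 44.3 CPM of Sema5b in KO and 47.9 CPM in WT. Across the 19 classes the correlation of Sema5a with Sema5b on the log2(CPM + 10) scale was 0.38 in KO and 0.42 in WT.

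**Figure D2:**
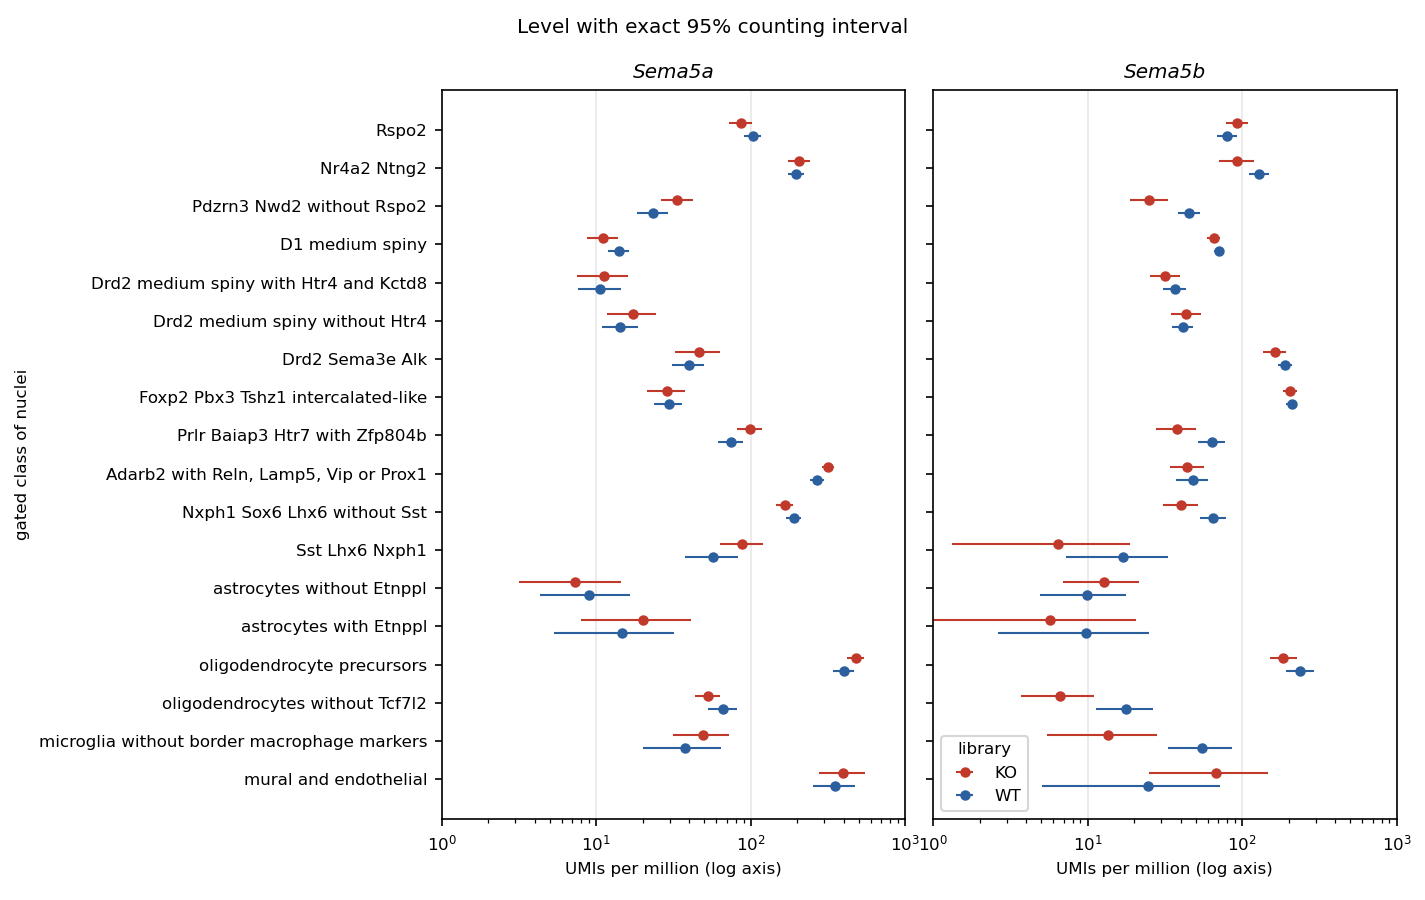
Level of Sema5a (left) and Sema5b (right) in CPM on a log axis in 18 gated classes, with exact 95% counting intervals, KO library in red and WT library in blue. Within the left panel, oligodendrocyte precursors and the Adarb2 class lie to the right of the intercalated-like class, and within the right panel the intercalated-like and Drd2 Sema3e Alk classes lie to the right of the Adarb2 class.

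Sema4a and Sema4b peaked in astrocytes, the glia that contact synapses and vessels. Sema4a, on chromosome 3 from 88435959 to 88461182, is known in the mouse as a ligand of B-type plexins, plexin-D1 and the immune receptor Timd2. It held 95.4 CPM in KO astrocytes and 89.8 CPM in WT astrocytes. Inhibitory neurons held 25.1 CPM in KO and 23.1 CPM in WT, so astrocytes were 3.80-fold above them in KO (3.20 to 4.49) and 3.88-fold in WT (3.29 to 4.56). Sema4b, on chromosome 7 from 80186841 to 80226527, ends in a motif that binds the postsynaptic scaffold PSD-95. It held 97.1 CPM in KO astrocytes and 67.5 CPM in WT astrocytes, against 14.1 CPM in KO and 13.8 CPM in WT inhibitory neurons. Astrocytes were 6.88-fold above inhibitory neurons for Sema4b in KO (5.73 to 8.24) and 4.90-fold in WT (4.03 to 5.92).

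In neurons the astrocyte genes parted. Excitatory neurons held 1.96-fold more Sema4a than inhibitory neurons in KO (1.75 to 2.19) and 2.35-fold more in WT (2.13 to 2.58). Rspo2 neurons, with 83.1 CPM of Sema4a in KO and 81.1 CPM in WT, had intervals that overlap those of both astrocyte classes. Sema4b in Rspo2 neurons was 24.3 CPM in KO and 20.4 CPM in WT, far below its astrocyte level. Across the 19 classes the 2 genes had a correlation of 0.68 in KO and 0.69 in WT, on the log2(CPM + 10) scale.

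Sema4d, on chromosome 13 from 51685529 to 51793747, is known as CD100, the ligand of plexin-B1 that is cut from the membrane by proteases such as Mmp14. Oligodendrocytes held 161 CPM in KO and 131 CPM in WT, microglia, the immune cells of the brain, 119 CPM in KO and 114 CPM in WT, and astrocytes 101 CPM in KO and 82.2 CPM in WT. The intervals of oligodendrocytes and microglia overlap in both libraries. Astrocytes with Etnppl held 88.3 CPM in KO and 38.9 CPM in WT, on 31 UMIs in KO and 16 in WT. Astrocytes without Etnppl held 102 CPM in KO and 106 CPM in WT. Precursors held 26.2 CPM in KO and 34.4 CPM in WT. Between precursors and oligodendrocytes without Tcf7l2, Sema4d thus ran opposite to the class 5 genes. Precursors were at 0.208-fold of those oligodendrocytes in KO (0.112 to 0.355) and 0.391-fold in WT (0.202 to 0.694). Nuclei with Tcf7l2 held 455 CPM of Sema4d in KO and 187 CPM in WT. They were above nuclei without Tcf7l2 by 3.61-fold in KO (2.91 to 4.46) and 2.13-fold in WT (1.68 to 2.70), as for Sema5a. The share of oligodendrocytes with a Sema4d UMI after thinning was 13.6% in KO and 11.8% in WT, against 1.28% in KO and 2.97% in WT precursors. Excitatory neurons held 62.3 CPM in KO and 73.6 CPM in WT, and inhibitory neurons 38.2 CPM in KO and 38.6 CPM in WT.

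**Figure D3:**
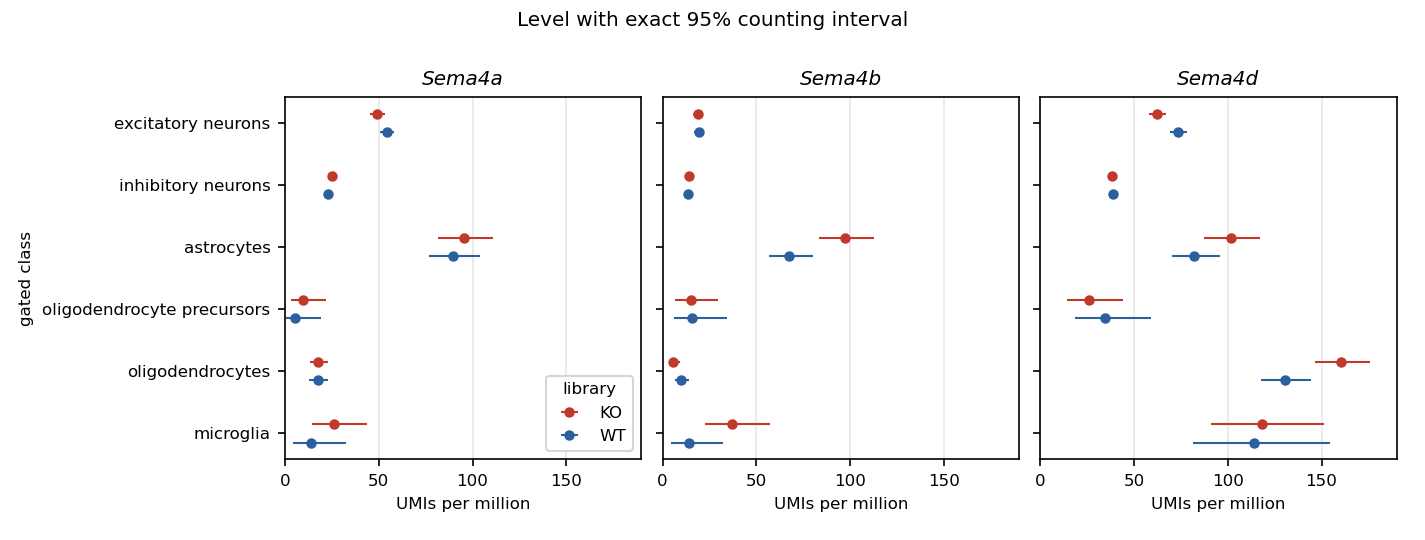
Level of Sema4a, Sema4b and Sema4d in CPM (linear axes from 0) in 6 broad classes, with exact 95% counting intervals, KO library in red and WT library in blue. Astrocytes lead for Sema4a and Sema4b, and for Sema4d the intervals of oligodendrocytes and microglia overlap.

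Sema4f, Sema4g and Sema7a each stood out in other neuron subtypes. Sema4f, on chromosome 6 from 82911885 to 82939769, binds PSD-95 through its tail, as Sema4b does. Among the gated neurons it stood first in Nr4a2 Ntng2 neurons, at 51.5 CPM in KO (35.9 to 71.7) and 44.5 CPM in WT (34.1 to 57.2). The intervals overlap those of the Prlr, Baiap3 and Htr7 neurons, at 34.6 CPM in KO and 30.8 CPM in WT. Sema4f was low in astrocytes, at 3.86 CPM in KO and 4.57 CPM in WT. Cluster 26, a small oligodendrocyte cluster, held 88.6 CPM of Sema4f in KO and 131 CPM in WT, on 26 UMIs in KO and 52 in WT. Sema4g, on chromosome 19 from 44989101 to 45003397, acts with plexin-B2 in the developing mouse cerebellum. It stood first in the Nxph1 Sox6 Lhx6 interneurons, at 43.2 CPM in KO (33.1 to 55.4) and 36.3 CPM in WT (27.9 to 46.6), 8.91-fold above Drd1 medium spiny neurons in KO (5.75 to 14.0) and 13.7-fold in WT (8.87 to 21.5). The next class overlapped it in each library: the Adarb2 class at 30.3 CPM in KO (21.9 to 40.8), and Rspo2 neurons at 32.1 CPM in WT (25.2 to 40.3). Rspo2 neurons held 22.4 CPM of Sema4g in KO. Cluster 25, which holds Sst neurons, stood at 49.3 CPM in KO and 56.5 CPM in WT, against 43.5 CPM in KO and 39.6 CPM in WT in cluster 22, the Nxph1 cluster.

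Sema7a, on chromosome 9 from 57940112 to 57962865, divided the striatal-type neurons in another way than Sema5b. Drd2 medium spiny neurons without Htr4 held 43.6 CPM in KO and 33.4 CPM in WT, against 8.40 CPM in KO and 8.88 CPM in WT intercalated-like neurons. That is 5.20-fold in KO (2.97 to 9.71) and 3.76-fold in WT (2.50 to 5.83), where Sema5b was lower in the Drd2 class. Excitatory Nr4a2 Ntng2 neurons, with 39.8 CPM of Sema7a in KO and 51.8 CPM in WT, stood 5.75-fold above Pdzrn3 Nwd2 neurons in KO (2.91 to 11.9) and 4.64-fold in WT (3.08 to 7.11). Mural and endothelial nuclei held 67.9 CPM in KO and 57.2 CPM in WT, on 6 UMIs in KO and 7 in WT. These were too few to place the pooled class above these neurons. All of these UMIs came from endothelial nuclei, and mural nuclei had 0 in both libraries. Endothelial nuclei, 20 in KO and 25 in WT, were too few to be ranked alone. They held 0.555% of Sema7a UMIs on 0.0815% of all UMIs in KO, and 0.454% on 0.0490% in WT. The pooled level is thus below that of endothelial nuclei.

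KO and WT nuclei of the same class were then compared, with a difference called where it was at least 1.5-fold and the gene had at least 100 UMIs over both libraries. In excitatory neurons all 9 genes had that depth and 1 was called, Sema5b, which was lower in KO. Over all genes of that depth in excitatory neurons, 5.89% were called in either direction and 2.71% as lower in KO. The 9 genes had a median log2 ratio of -0.16, against 0.02 over all 11767 genes with that depth. Sema5b held 61.4 CPM in KO and 93.8 CPM in WT excitatory neurons, a log2 ratio of -0.61 (-0.75 to -0.48). The ratio was -0.54 after thinning, short of the 1.5-fold line, and -0.59 with the same subtype weights in both libraries. Median mitochondrial UMIs of excitatory neurons were 0.202% in KO and 0.569% in WT, and the part of this gap in the result was not tested.

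Sema5a, with the same level of 114 CPM in KO and WT excitatory neurons, had a log2 ratio of -0.00 (-0.11 to 0.11). The other 7 genes lay between -0.33 for Sema7a, at 18.8 CPM in KO and 23.6 CPM in WT, and 0.12 for Sema4f, at 27.9 CPM in KO and 25.7 CPM in WT. In inhibitory neurons 0 of the 9 genes were called, where 6.21% of all 14121 genes were. Their median log2 ratio was 0.12 against 0.04 over all genes. Sema4g had the highest ratio there, 0.50 (0.32 to 0.69), with 15.6 CPM in KO and 11.0 CPM in WT. Sema5a followed at 73.9 CPM in KO and 59.4 CPM in WT, 0.31 on the log2 scale (0.23 to 0.40), which came to 0.10 with the same subtype weights in both libraries. Sema5b was again the lowest, with 59.7 CPM in KO and 73.0 CPM in WT and a ratio of -0.29 (-0.37 to -0.20).

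**Figure D4:**
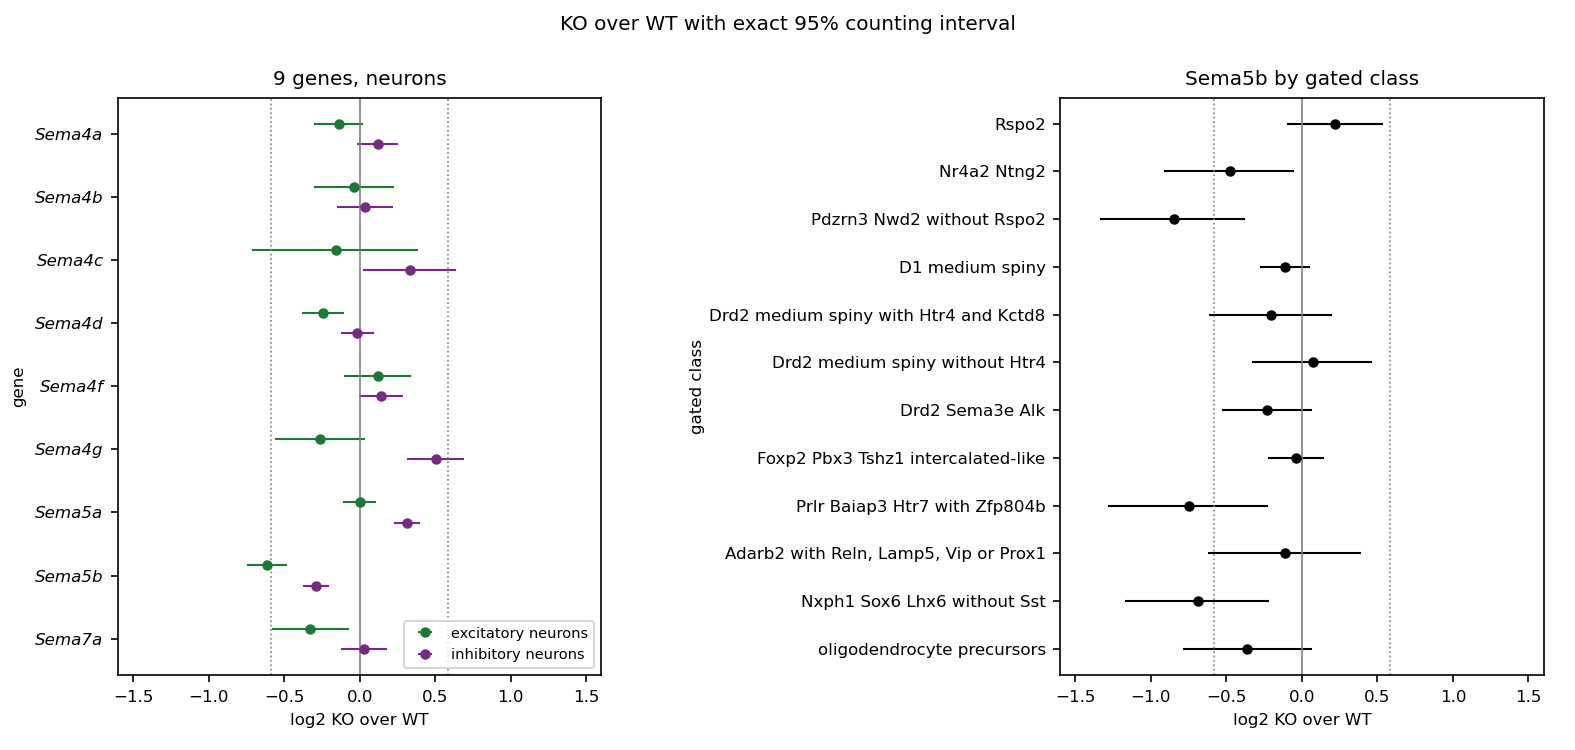
Log2 of KO over WT level with exact 95% counting intervals, for the 9 genes in excitatory and inhibitory neurons (left) and for Sema5b in 12 gated classes with at least 100 UMIs (right). Dotted lines mark 1.5-fold; Sema5b is the gene beyond the line in excitatory neurons, and on the right the intercalated-like neurons lie near 0 at -0.04.

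Sema5b was not lower by the same amount in every subtype. It had 100 UMIs in 12 of the 18 classes described here, with a ratio below 0 in 10 and above 0 in 2, and was called lower in 3. Pdzrn3 Nwd2 neurons held 25.2 CPM in KO and 45.3 CPM in WT, with 4.67% of all genes called lower there. Neurons with Prlr, Baiap3 and Htr7 held 38.0 CPM in KO and 63.7 CPM in WT, with 3.48% called lower. Nxph1 Sox6 Lhx6 interneurons held 40.4 CPM in KO and 65.1 CPM in WT, with 2.68% called lower. Under stricter gates the log2 ratio was -0.28 in the Nxph1 class, short of 1.5-fold, and -1.15 in the Prlr class. For classes built from clusters it was -0.36 in the Nxph1 class and -0.31 in the Prlr class, both short of 1.5-fold. The Prlr cluster, cluster 0, held 991 KO and 1246 WT nuclei, of which 120 in KO and 150 in WT were in the Prlr gate. Over 8 alternatives the Prlr ratio ranged from -1.99 to -0.31. The Nxph1 class had 53.4% of its nuclei in cluster 8 and 35.6% in cluster 22 in KO, against 37.4% in cluster 8 and 53.1% in cluster 22 in WT. Sema5b was at 32.3 CPM in KO and 43.2 CPM in WT in cluster 8, and at 77.6 CPM in KO and 99.5 CPM in WT in cluster 22, so the makeup of the class differed along with its level. In Pdzrn3 Nwd2 neurons it ranged from -1.54 to -0.81 over 8 alternatives. The intercalated-like neurons differed by -0.04 (-0.23 to 0.15). Over 8 alternatives their ratio ranged from -0.36, under stricter gates, to 0.16. The Drd1 medium spiny neurons, at 65.5 CPM in KO and 70.7 CPM in WT, differed by -0.11 (-0.28 to 0.05). Over 8 alternatives the Drd1 ratio ranged from -0.28 to 0.21. Rspo2 neurons held 92.8 CPM in KO and 79.8 CPM in WT, 0.22 on the log2 scale, but -0.43 under stricter gates. Cluster 14, the Rspo2 cluster, held 43.8% of these nuclei in KO and 45.4% in WT. Cluster 11 held 30.5% in KO and 23.2% in WT, and cluster 20 held 18.8% in KO and 27.0% in WT. Sema5b was at 224 CPM in KO and 317 CPM in WT in cluster 11. In cluster 20 it was at 25.3 CPM in KO and 59.9 CPM in WT. The makeup of the Rspo2 class thus differed along with its level, and the part of makeup was not tested. In cluster 14 the log2 ratio was -0.54, on 10 UMIs in KO and 21 in WT, at 5.04 CPM in KO and 7.34 CPM in WT. Over all 9 genes, 58 comparisons in these 18 classes had 100 UMIs and 3 of them were called, all of Sema5b. Over all genes in these classes 7.24% of such comparisons were called, and 3.87% as lower in KO.

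In glia, 2 of the 5 genes with that depth in oligodendrocytes were called, both lower in KO, where 21.0% of all genes were called in either direction and 11.4% as lower. Sema5a held 119 CPM in KO and 181 CPM in WT, a log2 ratio of -0.60 (-0.80 to -0.40), but with the same weights for nuclei with and without Tcf7l2 the ratio was 0.57. Sema4f held 16.2 CPM in KO and 28.9 CPM in WT, -0.83 (-1.38 to -0.30), and -0.44 with the same weights. Within the nuclei with Tcf7l2, the log2 ratio of Sema5a was 0.96 (0.71 to 1.20). Cluster 26 held 11 of these nuclei in KO and 21 in WT, and over all its nuclei, 60 in KO and 73 in WT, Sema5a was at 467 CPM in KO and 678 CPM in WT, a log2 ratio of -0.54. So the direction for Sema5a in oligodendrocytes depended on how nuclei were grouped. Sema4d had a log2 ratio of 0.30 over all oligodendrocytes, and of 0.79, past the 1.5-fold line, with the same weights. In oligodendrocytes without Tcf7l2 it was at 126 CPM in KO and 88.1 CPM in WT, 0.52 on the log2 scale (0.20 to 0.84). In those with Tcf7l2 it was at 455 CPM in KO and 187 CPM in WT. Both oligodendrocyte clusters had ratios above 0 for Sema4d, at 0.62 (0.27 to 0.97) in cluster 1, with 1095 KO and 506 WT nuclei, and 0.28 (-0.04 to 0.60) in cluster 26. Pooled, with their unequal shares of nuclei, they came to -0.01. In astrocytes 0 of 3 genes were called, where 7.08% of all genes were, and Sema4b was highest with a ratio of 0.52 (0.19 to 0.86). Precursors had 0 of 2 called, with 7.81% of all genes called, and microglia 0 of 1, with 18.6%.

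The partners of these semaphorins were read from a list of 21 genes that holds receptors, co-receptors, effectors and binders. Of these, 11 had 100 UMIs in excitatory neurons and 15 in inhibitory neurons, and 0 were called in either. In subtypes, 2 of 8 were called lower in Pdzrn3 Nwd2 neurons and 1 of 5 in Prlr neurons. The intercalated-like class had 1 of 6 lower, the Nr4a2 Ntng2 class 1 of 4 and the Drd2 Sema3e Alk class 1 of 5. In Drd1 medium spiny neurons 1 of 9 was called higher, and the other neuron subtypes described here had 0. Over all genes in the 18 classes, 7.24% of comparisons were called. Plxnc1, the receptor of Sema7a, held 89.0 CPM in KO and 97.7 CPM in WT excitatory neurons, and 70.4 CPM in KO and 63.6 CPM in WT inhibitory neurons. Plxna3, a class 5 receptor, held 8.64 CPM in KO and 6.31 CPM in WT inhibitory neurons, 0.45 on the log2 scale. Dlg4, which encodes PSD-95, was the lowest in excitatory neurons, with 71.7 CPM in KO and 102 CPM in WT and a log2 ratio of -0.51. In astrocytes Plxnb1, the Sema4d receptor, held 116 CPM in KO and 108 CPM in WT, and inhibitory neurons held 5.36 CPM in KO and 5.85 CPM in WT.

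Among glia, 1 of 9 partner genes was called in oligodendrocytes, where 21.0% of all genes were, and 1 of 8 in astrocytes, where 7.08% were, both higher in KO. Plxnb3, a B-type plexin that also binds Sema5a, held 234 CPM in KO and 144 CPM in WT oligodendrocytes, 0.70 on the log2 scale. In oligodendrocytes without Tcf7l2, 1028 nuclei in KO and 505 in WT, 0 of the 8 partner genes with 100 UMIs were called. The part of Tcf7l2 makeup in the Plxnb3 value was not tested. Mmp14, the protease that releases Sema4d, held 37.0 CPM in KO and 17.3 CPM in WT astrocytes, 1.10 on the log2 scale. Its UMIs there were close to the minimum of 100 over both libraries. Over all nuclei 4 of 19 partner genes were called, all higher in KO: Plxnb3, Itga1, Met and Mmp14, where 9.72% of all genes were called. Oligodendrocytes made up 1193 of 7911 KO nuclei and 634 of 10369 WT nuclei, so a value over all nuclei moves with the makeup of the library.

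The other partner genes were not called in the broad neuron classes. Arhgef12, an exchange factor that binds B-type plexins, held 412 CPM in KO and 453 CPM in WT astrocytes and 151 CPM in KO and 168 CPM in WT inhibitory neurons. Its relative Arhgef11 held 96.2 CPM in KO and 102 CPM in WT excitatory neurons. Itgb1, which encodes the beta1 integrin bound by Sema7a, held 54.9 CPM in KO and 59.6 CPM in WT excitatory neurons. Plxnd1 held 29.5 CPM in KO and 34.2 CPM in WT excitatory neurons, against 14.7 CPM in KO and 18.1 CPM in WT inhibitory neurons. Plxna1, the other class 5 receptor, held 24.3 CPM in KO and 28.0 CPM in WT excitatory neurons, and Plxnb2, a class 4 receptor, 15.7 CPM in KO and 13.7 CPM in WT. Gipc1, a scaffold that binds the tail of Sema4c, held 19.3 CPM in KO and 20.1 CPM in WT excitatory neurons. In inhibitory neurons Rnd1, Rras and Cd72 lay between 1.52 and 2.15 CPM in KO and between 1.43 and 2.27 CPM in WT. Timd2 had 4 UMIs in KO and 1 in WT there, and Erbb2 10 in KO and 13 in WT, too few to compare.

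For each semaphorin the genes of most similar pattern in the WT library were named, by Pearson's correlation of log2(CPM + 10) over the 19 classes. Such correlations across classes of 1 library share depth and base composition and are given as descriptions. Closest to Sema4b was Camk2g, a calcium-dependent kinase subunit, with 0.88 in KO and 0.93 in WT, followed by Pfkfb4, with 0.90 in both, and Rnf24, with 0.67 in KO and 0.90 in WT. Sema4f was followed by Ero1lb, with 0.77 in KO and 0.92 in WT, Emb and Zfr2. Sema4g was followed by Ctif, with 0.76 in KO and 0.84 in WT, and by Sgpl1, with 0.80 in both. Sema4a stood closest to Grhl1, with 0.86 in KO and 0.87 in WT, then Ccdc138, with 0.44 in KO and 0.81 in WT, and Ppil6, with 0.85 in KO and 0.81 in WT.

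The KO library had no part in the choice of the named genes. Sema5b was followed by Arhgef3, a guanine nucleotide exchange factor, with 0.82 in KO and 0.83 in WT, by Uggt1, with 0.03 in KO and 0.82 in WT, and by Snx7. Sema5a was followed by Zfp451, with 0.49 in KO and 0.82 in WT, then Dlc1 and Msrb3. Sema7a was followed by Gcnt2, with 0.77 in KO and 0.79 in WT, by Htr2a, a serotonin receptor, with 0.38 in KO and 0.77 in WT, and by Diras2, with 0.45 in KO and 0.76 in WT. Sema4d was followed by Dyrk1a, with 0.70 in KO and 0.84 in WT, Wdfy2, and Fbrsl1, with 0.15 in KO and 0.79 in WT. Sema4c was followed by Lamc1, with 0.53 in KO and 0.89 in WT, Nampt, with 0.12 in KO and 0.85 in WT, and Abcg2, on the few UMIs given above.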

How the data were processed

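Nuclei of 1 KO and 1 WT amygdala library were analysed. Per the submitters' processing notes, the authors made the deposited matrices of raw UMI counts with Cell Ranger 6.0.0 on mm10, from 10x 5′ libraries per the labels' protocols. The sources used here do not give the annotation version or how strand and introns were counted. Symbols were matched for 32158 of 32285 identifiers. Gene positions came from GENCODE on the same build and promoters from RefSeq (GRCm38.p6).

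The deposited counts summed to 60402979 UMIs in 8666 KO barcodes and 85124128 in 11060 WT barcodes. Nuclei with under 500 genes (143 in KO, 12 in WT), over 5% mitochondrial UMIs (428 in KO, 259 in WT) or a Scrublet doublet call at 0.8% per 1000 nuclei (222 in KO, 422 in WT) were left out (scanpy 1.11.5). Classes were gated on marker UMIs. Minima were set after marker counts were seen, and 59.5% of KO and 55.9% of WT nuclei fell in a subtype gate. Counts were summed by class and scaled per 1000000 UMIs. A count of 0 was given a floor of 3. Intervals are exact at 95% and cover counting error only.

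No test was made, since each genotype has 1 library. Named were every semaphorin, the partner genes and, of genes with 50 CPM in a WT class, the 3 most like each semaphorin in WT, except that some genes and 1 class chosen by these rules are not reported here. The members and lists were chosen with earlier results of these data known. The ratio step was checked on simulated data. Alternatives were other gene minima, doublets kept, stricter gates, Leiden clusters (30 components, 15 neighbours, resolution 1.0, leidenalg 0.10.2), TMM (edgeR 4.0.16) and median-of-ratios scaling, thinning to 1000 UMIs, the same subtype weights, and other folds and depth minima.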

Additional observations from a re-analysis of the deposited data

How the results depend on the processing

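Of the alternative values of KO over WT ratios of the 9 semaphorins, 743 stayed within the counting interval of the reported ratio, 84 moved out of it and 1 changed sign after a call. That one was Sema5a in oligodendrocytes, at 0.57 with the same subtype weights in both libraries. Sema5b in excitatory neurons ranged from -0.73 to -0.54 over 9 alternatives.

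In excitatory neurons the number of called semaphorins was 1, but 0 after thinning to 1000 UMIs, 2 at the lower fold tried and 0 at 2-fold. In inhibitory neurons it was 0, but 2 at the lower fold tried. Over all genes, 693 were called in excitatory neurons, against 248 after thinning, 2006 with at least 20 UMIs, 303 with at least 300 UMIs, 2847 at the lower fold tried and 109 at 2-fold. In inhibitory neurons 877 were called, against 455 after thinning, 2250 with at least 20 UMIs, 398 with at least 300 UMIs, 3269 at the lower fold tried and 139 at 2-fold. Thinning and a higher UMI minimum leave fewer genes with the depth asked for.

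No paired analysis was possible because each genotype has 1 library, and there is no replicate to leave out. Depth limits Sema4c, and 0 of the 9 genes had 100 UMIs in mural and endothelial nuclei, Sst Lhx6 Nxph1 neurons or astrocytes with Etnppl.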
